A study of Mus musculus with 40 samples.

Results

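The distal ends of the mouse autosomes were examined for dimethylation of lysine 9 on histone H3 (H3K9me2) in oocytes. An end was defined by position alone: the 10 kb windows that start within 3 Mb of the last base listed for their chromosome, with at least 1 read in any of the 6 H3K9me2 libraries. All of the distal 3 Mb of chromosome 2 lies in a zinc finger gene interval above 175 Mb and was left out by that definition, so 18 ends remained. They held 5167 windows, out of 255057 windows with a read in the whole table. Germinal-vesicle oocytes are the fully grown oocytes of the ovary before meiotic maturation. They came from mice aged 22 to 25 days in pools of 100 to 200, and were dissected by hand. Chromatin was immunoprecipitated natively from these few cells with 250 ng of antibody per reaction, giving 2 H3K9me2 libraries per genotype. The genotypes were Control, G9a cKO (conditional knockout of G9a) and G9a-Glp cDKO (conditional knockout of both G9a and Glp, here cDKO). The labels name no Cre driver, strain or cross for the chromatin libraries, so the same 2 Control libraries served both mutants. RNA was measured in 11 libraries, with 3 Control libraries of the GKAO title prefix against 3 G9a cKO libraries, and 3 Control libraries of the GKAQ prefix against 2 cDKO libraries. Nothing in the labels says whether libraries of a group came from separate animals, so p-values measure the spread between libraries, which may be technical.

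H3K9me2 is a mark of repressed chromatin that covers broad domains, many of them poor in active genes and held at the nuclear periphery. Its main writers outside constitutive heterochromatin are G9A, the product of Ehmt2, and its partner GLP, the product of Ehmt1, which work as a heterodimer, while other enzymes such as SETDB1 and the SUV39H proteins methylate the same residue. Mouse chromosomes are telocentric: the centromere lies next to one telomere, and the distal end studied here is the other. Telomere repeats and the sequence next to them are packed into heterochromatin marked by methylated H3K9 and bound by HP1 proteins.

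The promoters of 4 genes are shown because they lie in 100 kb bins that are among those with the largest called H3K9me2 changes in a mutant. The Arhgef16 promoter holds far more CG dinucleotides than the others. Other promoters in such bins are not shown, among them that of D230030E09Rik (18 CG dinucleotides) on chromosome 12. Each sequence runs 5′ to 3′ on the gene's strand from 250 bases before to 50 bases after the transcription start, from RefSeq on build GRCm38.p6, with CG dinucleotides in capitals.
Fgf14 promoter, chr14:124192497-124192796, minus strand: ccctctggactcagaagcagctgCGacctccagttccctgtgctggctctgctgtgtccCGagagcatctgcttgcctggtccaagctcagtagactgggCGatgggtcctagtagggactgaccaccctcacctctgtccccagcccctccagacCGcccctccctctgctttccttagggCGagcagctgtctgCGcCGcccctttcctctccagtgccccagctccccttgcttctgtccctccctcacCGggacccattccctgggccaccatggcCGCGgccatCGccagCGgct
Nrp1 promoter, chr8:128358823-128359122, plus strand: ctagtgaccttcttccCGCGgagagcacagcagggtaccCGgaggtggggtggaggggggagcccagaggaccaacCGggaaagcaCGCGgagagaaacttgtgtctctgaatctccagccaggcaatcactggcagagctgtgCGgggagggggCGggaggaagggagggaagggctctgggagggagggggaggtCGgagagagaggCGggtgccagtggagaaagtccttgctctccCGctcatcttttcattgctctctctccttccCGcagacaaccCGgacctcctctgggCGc
Arhgef16 promoter, chr4:154299846-154300145, minus strand: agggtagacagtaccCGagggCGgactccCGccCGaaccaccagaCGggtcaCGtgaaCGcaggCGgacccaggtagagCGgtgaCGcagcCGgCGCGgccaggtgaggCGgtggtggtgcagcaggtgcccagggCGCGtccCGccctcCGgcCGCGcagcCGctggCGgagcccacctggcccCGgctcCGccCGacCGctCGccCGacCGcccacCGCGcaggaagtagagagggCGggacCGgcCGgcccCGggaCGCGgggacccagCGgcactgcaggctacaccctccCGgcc
Fry promoter, chr5:150259680-150259979, plus strand: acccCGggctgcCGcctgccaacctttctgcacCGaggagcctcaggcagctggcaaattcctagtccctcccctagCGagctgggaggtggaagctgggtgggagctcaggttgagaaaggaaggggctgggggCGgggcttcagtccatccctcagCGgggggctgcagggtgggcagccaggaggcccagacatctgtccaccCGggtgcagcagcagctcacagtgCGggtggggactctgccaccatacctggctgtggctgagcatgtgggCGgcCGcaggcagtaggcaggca
The Fgf14 start that RefSeq lists here lies inside the gene, which spans 123974441 to 124677686 on the minus strand, and so is an internal start. Fgf14 (a fibroblast growth factor homologous factor that binds sodium channels) has 12 CG dinucleotides in this window and Nrp1 (neuropilin, a co-receptor for semaphorins and VEGF) has 14. Both lie in bins that lost H3K9me2 share in the G9a cKO. Arhgef16 (a guanine nucleotide exchange factor) has 39 and Fry (a cytoskeletal scaffold protein) has 10, and both lie in bins that gained share in the cDKO. The 32851 promoters of the table had a median of 7 CG dinucleotides, and the 939 promoters inside the ends a median of 8. The telomere repeat unit, searched as TTAGGG or CCCTAA, so on both strands, was present in 10.0% of promoters inside the ends and in 10.6% of all promoters. Of these 4, the Fgf14 promoter holds it.

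Values are reads per 1000000 reads (RPM), the share of a library's reads that falls in a window, so a loss of the mark across the whole genome cannot be seen. The deeper libraries were both Controls, with 7048784 and 19128881 reads, against 1857144 and 1109191 in the G9a cKO and 1723142 and 1881848 in the cDKO. The median window of the ends held 28 and 77 reads in the Controls but only 4 to 7 in the mutants. Depth therefore moved with genotype, and its part in the results was not tested. The H3K9me2 fits below share 1 estimate of the spread with the deeper Controls. Their p-values between the shallower mutants may therefore be too small. Single windows were noisy over the 4922 windows of the ends with reads in all libraries. Pearson's r of log2 RPM was 0.71 between the 2 Controls, 0.42 between the G9a cKO libraries and 0.30 between the cDKO libraries. Each Control against each mutant library gave 0.13 to 0.19. Each G9a cKO against each cDKO library gave 0.26 to 0.40, a range that includes the value between the cDKO libraries. Results below rest on reads summed over longer stretches.

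The ends as a whole carried about the same H3K9me2 share as the rest of the autosomes in every genotype. Their mean level was 4.04 and 4.07 RPM per 10 kb window in the Controls, 4.23 and 4.12 RPM in the G9a cKO, and 4.20 and 4.12 RPM in the cDKO. Relative to the other autosomal windows this was 1.01 and 1.02 times in the Controls, 1.05 and 1.03 times in the G9a cKO, and 1.05 and 1.03 times in the cDKO. Each mutant library lay above both Controls in this ratio. The log2 ratio was higher by 0.04 in the G9a cKO and by 0.04 in the cDKO (n = 2 per group). The square root of the summed variances of the 2 groups was 0.02 in each comparison. The exact permutation test, 2-sided, gave p = 0.333 in both, and 0.333 is the smallest p that 2 against 2 libraries allow. The difference in the G9a cKO grew to 0.16 when only the last 1 Mb was counted, and that in the cDKO to 0.06.

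The near-equal totals covered unlike ends. Among the Controls the level of an end ran from 3.47 RPM (chromosome 13) to 4.84 RPM (chromosome 1) in replicate 1, and from 3.48 to 5.06 RPM at those chromosomes in replicate 2. The G9a cKO spanned 2.88 to 5.06 RPM in replicate 1 and 2.74 to 5.03 RPM in replicate 2. The cDKO spanned 3.17 to 5.14 RPM and 3.08 to 5.03 RPM. The SD over the 18 ends was 0.37 and 0.43 RPM in the Controls, 0.60 and 0.71 RPM in the G9a cKO and 0.56 and 0.56 RPM in the cDKO. Replicates differed most in the G9a cKO: the ratio of replicate 1 to replicate 2 at an end ran from 0.933 to 1.05 in the Controls, from 0.913 to 1.26 in the G9a cKO and from 0.929 to 1.11 in the cDKO, and the mutant libraries held fewer reads.

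**Figure D1:**
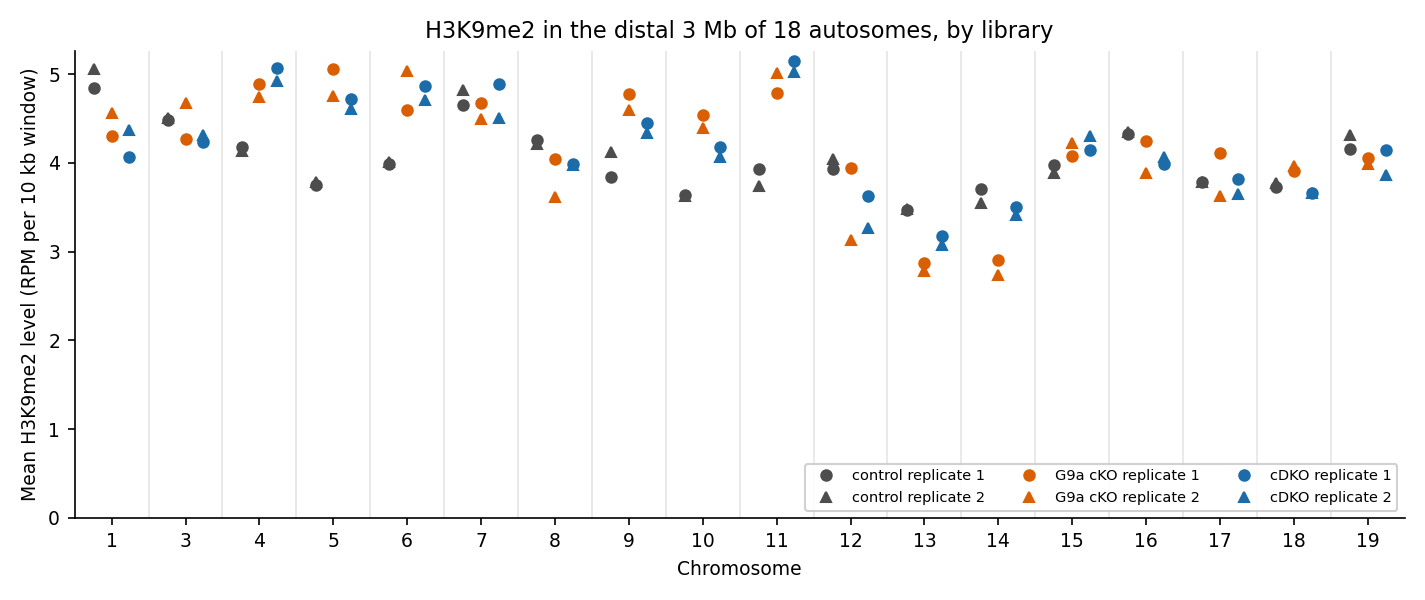
Mean H3K9me2 level (RPM per 10 kb window) in the distal 3 Mb of each of 18 autosomes, 1 point per library, circles for replicate 1 and triangles for replicate 2. At chromosomes 4, 5, 6, 9, 10, 11 and 15 the 4 mutant libraries lie above both Controls. At chromosomes 1, 8, 13, 14, 16 and 19 they lie below both.

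Of the 18 ends, 6 gained H3K9me2 share and 4 lost it in the G9a cKO. The test was limma on log2 RPM over all 858 bins of 3 Mb counted back from the chromosome ends, with Benjamini-Hochberg adjustment over all of them and a threshold of 0.05. By that test 56.9% of all bins were called in the G9a cKO, 24.8% higher and 32.1% lower, so 10 of 18 ends is close to the background. The ends of chromosomes 4, 5, 6, 9, 10 and 11 rose, by 0.21 to 0.38 on the log2 scale, and those of 1, 8, 13 and 14 fell, by -0.15 to -0.36.

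In the cDKO the ends of the same 6 chromosomes rose and those of chromosomes 1 and 13 fell. The background was 47.3% of bins called, 20.4% higher and 26.9% lower. The rises ran from 0.14 at chromosome 9 to 0.41 at chromosome 11. Both mutants were compared with the same Controls, so these lists are not independent of each other. With each library centred on its median bin, the G9a cKO had 6 ends higher and 2 lower, and the cDKO 7 higher and 1 lower. With the top 1% of windows left out the splits were 6 higher and 7 lower in the G9a cKO and 5 higher and 3 lower in the cDKO. With ends of 1, 2 and 5 Mb the G9a cKO had 8, 9 and 8 higher against 2, 5 and 2 lower, and the cDKO 5, 6 and 8 higher against 1, 4 and 1 lower.

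The largest rises were at chromosomes 5 and 11. The end of chromosome 5 (148840001 to 151834684, GRCm38) carries 21 protein-coding genes, among them Fry, and the vomeronasal receptor gene Vmn2r18. Its level was 3.75 and 3.79 RPM in the Controls, 5.06 and 4.75 RPM in the G9a cKO, and 4.72 and 4.60 RPM in the cDKO. No mutant library overlapped the Controls, and the log2 fold changes were 0.38 (SE 0.05, limma adjusted p = 0.000114) and 0.31 (SE 0.05, limma adjusted p = 0.00118). The end of chromosome 11 (119090001 to 122082543), with 81 protein-coding genes, had 3.93 and 3.74 RPM in the Controls, 4.79 and 5.01 RPM in the G9a cKO and 5.14 and 5.03 RPM in the cDKO. Here too each mutant library was higher than both Controls, by a log2 fold change of 0.36 (SE 0.05) in the G9a cKO and 0.41 (SE 0.05) in the cDKO.

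The other 4 rising ends moved less. Chromosome 10, whose end holds 58 olfactory receptor (Olfr) genes among 127 protein-coding genes, had 3.64 and 3.63 RPM in the Controls, 4.54 and 4.39 RPM in the G9a cKO and 4.18 and 4.07 RPM in the cDKO. Chromosome 6 had 3.98 and 4.01 RPM in the Controls, 4.60 and 5.03 RPM in the G9a cKO and 4.86 and 4.71 RPM in the cDKO. Chromosome 4 went from 4.18 and 4.14 RPM to 4.89 and 4.74 RPM in the G9a cKO and 5.07 and 4.92 RPM in the cDKO. In these 3 ends each mutant library was above both Controls. Chromosome 9 had 3.84 and 4.12 RPM in the Controls, 4.77 and 4.59 RPM in the G9a cKO and 4.44 and 4.34 RPM in the cDKO. In the G9a cKO all 6 rises were called whichever of the 6 libraries was left out. In the cDKO the rise at chromosome 9 was lost without either Control or either cDKO library (limma adjusted p 0.0586 to 0.342), and that at chromosome 10 without either Control or cDKO replicate 1 (0.0601 to 0.0666). With bins of 1 Mb the rise at chromosome 10 was not called in the G9a cKO (0.16, limma adjusted p = 0.105) or the cDKO (0.05, 0.638), nor in the cDKO with bins of 2 Mb (0.09, 0.309). That at chromosome 9 in the cDKO was not called with bins of 1 Mb (0.14, limma adjusted p = 0.147) or without the top 1% of windows (0.11, 0.0871).

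The falls were clearest at chromosomes 14 and 13 in the G9a cKO. The end of chromosome 14 (121910001 to 124902244) holds the long neuronal gene Fgf14 and the zinc finger gene Zic2, and its level was 3.71 and 3.54 RPM in the Controls, 2.91 and 2.74 RPM in the G9a cKO, and 3.51 and 3.41 RPM in the cDKO. The G9a cKO libraries lay below all others, with a log2 fold change of -0.36 (SE 0.05, limma adjusted p = 0.000347), while the cDKO value against Control was -0.07 (SE 0.05, limma adjusted p = 0.323). Tested directly, the cDKO was higher than the G9a cKO at this end by 0.29 (SE 0.05, limma adjusted p = 0.0358), the one end of 18 called in that comparison, where 7.11% of all bins were called, 3.85% higher and 3.26% lower; 4 ends had an unadjusted p under 0.05. That difference was lost without either Control (limma adjusted p 0.0603 and 0.0583), without either cDKO library (0.109 and 0.315), and with bins of 1 Mb (0.130) and 5 Mb (0.0971).

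Chromosome 13 had 3.47 and 3.48 RPM in the Controls, 2.88 and 2.78 RPM in the G9a cKO and 3.17 and 3.08 RPM in the cDKO. All mutant libraries were below the Controls. The fall of -0.30 (SE 0.06) in the G9a cKO was called with each library left out in turn, but not with bins of 1 Mb (-0.04, limma adjusted p = 0.810). The fall of -0.15 (SE 0.06) in the cDKO was lost without either Control or either cDKO library (limma adjusted p 0.112 to 0.269), with bins of 2 Mb (0.0902) and after centring (0.0789), and was 0.03 with bins of 1 Mb. Chromosome 1, the end with the highest Control level, had 4.84 and 5.06 RPM in the Controls, 4.30 and 4.57 RPM in the G9a cKO and 4.06 and 4.38 RPM in the cDKO. Its fall was -0.16 (SE 0.05) in the G9a cKO, lost without either Control or G9a cKO replicate 1 (limma adjusted p 0.0537 to 0.195), and -0.23 (SE 0.05) in the cDKO, lost without Control replicate 2 or cDKO replicate 1 (0.0663 and 0.0763). With bins of 1 and 5 Mb neither fall at chromosome 1 was called, at -0.01 and -0.03 in the G9a cKO (limma adjusted p = 0.890 and 0.729) and -0.16 and -0.08 in the cDKO (0.0879 and 0.280), and after centring that of the G9a cKO was -0.13 (0.0632). Chromosome 8 had 4.26 and 4.22 RPM in the Controls, 4.05 and 3.62 RPM in the G9a cKO and 3.98 RPM in both cDKO libraries. The called fall in the G9a cKO (-0.15, SE 0.05) held only without G9a cKO replicate 1, was lost without each of the other 5 libraries (limma adjusted p 0.0655 to 0.185) and after centring (0.0899), and turned to rises of 0.05 and 0.08 in bins of 1 and 5 Mb.

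At the remaining 8 ends neither mutant passed the test. Chromosome 3 stood at 4.49 and 4.50 RPM in the Controls and 4.23 to 4.67 RPM in the mutant libraries, and chromosome 7, with the imprinted Igf2 and Kcnq1 domains, at 4.66 and 4.82 RPM and 4.49 to 4.89 RPM. Chromosome 15, with 26 keratin genes and the 9 Hoxc genes, stood at 3.98 and 3.89 RPM in the Controls and 4.08 to 4.30 RPM in the mutants, above both Controls in each. Chromosome 12 had 3.93 and 4.04 RPM in the Controls, but its G9a cKO libraries differed from each other, with 3.94 and 3.13 RPM. Chromosomes 16, 17, 18 and 19 had Control levels of 3.73 to 4.35 RPM and mutant levels of 3.62 to 4.24 RPM. For these 8 ends a p above the threshold does not show that the level was unchanged.

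**Figure D2:**
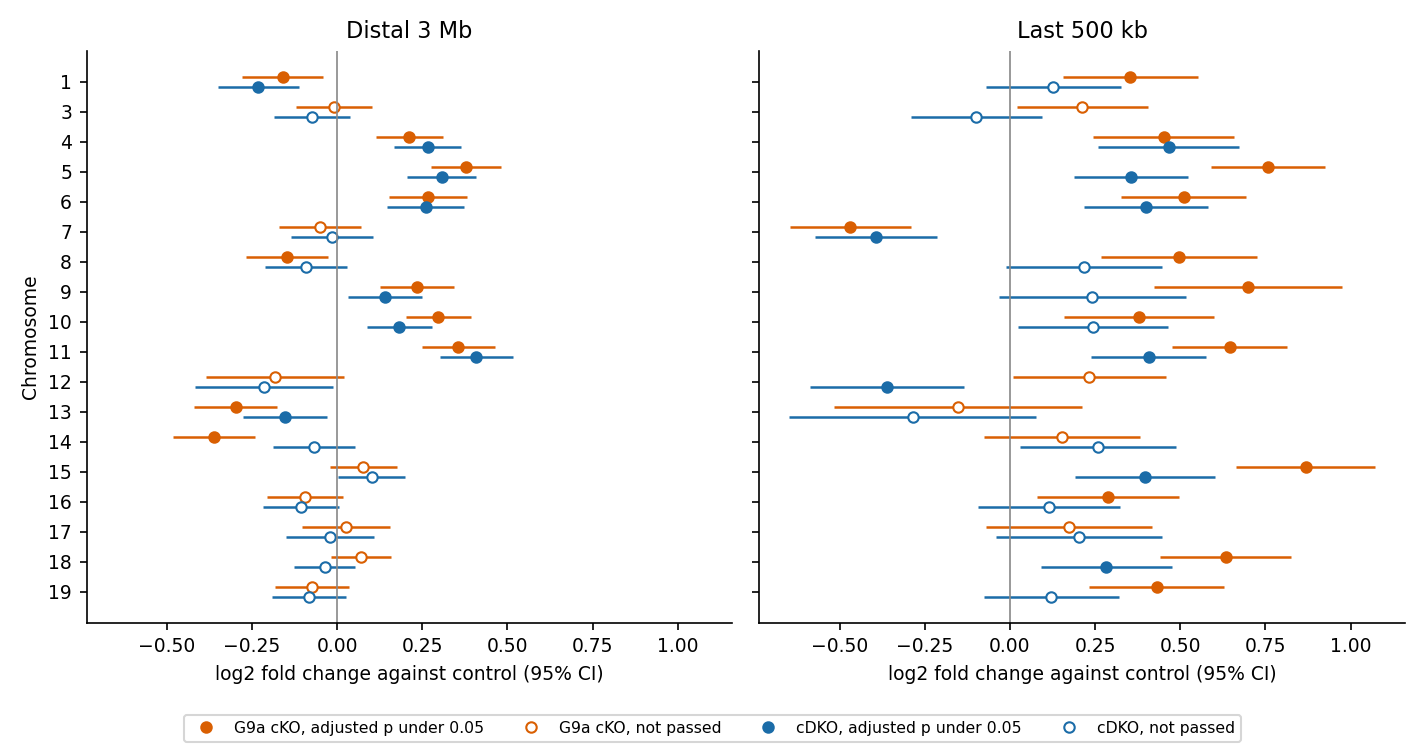
Log2 fold change of H3K9me2 share against Control at each of 18 chromosome ends with its 95% confidence interval from limma, for the distal 3 Mb (left) and the last 500 kb (right), with filled points for adjusted p under 0.05. Over 3 Mb the G9a cKO has 6 ends higher and 4 lower, and over the last 500 kb 12 higher and 1 lower.

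The position of the gain was not even along the ends. The 180 windows of the last 100 kb held no read in any library, so the mark could not be assessed there. What is called the last 500 kb below therefore rests on windows 100 to 500 kb from the end. In the next stretch, 100 to 200 kb from the end, the mean level was 3.48 and 3.52 RPM in the Controls, 5.35 and 5.09 RPM in the G9a cKO and 4.59 and 4.20 RPM in the cDKO. At 200 to 300 kb it was 3.68 and 3.73 RPM in the Controls, 5.82 and 5.49 RPM in the G9a cKO and 4.83 and 4.32 RPM in the cDKO. In both steps the cDKO stood between the other 2 genotypes. At 500 to 600 kb the genotypes overlapped, at 3.94 and 4.10 RPM, 4.21 and 4.02 RPM, and 4.06 and 3.69 RPM in the same order. Outside the ends, each mutant's mean was above the Control mean in every 500 kb step from 3 to 10 Mb. The ratio to Control there was 1.00 to 1.21 in the G9a cKO and 1.05 to 1.18 in the cDKO. In the last 500 kb it was 1.31 and 1.12, so the cDKO gain at the end was no larger than some farther in. From 3.5 to 4.0 Mb the level was 3.95 and 3.92 RPM in the Controls, 4.67 and 4.86 RPM in the G9a cKO and 4.73 and 4.56 RPM in the cDKO.

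Over the whole last 500 kb, which holds 687 windows with a read, the level relative to the other 4480 windows of the ends was 0.92 and 0.93 times in the Controls. It was 1.27 and 1.19 times in the G9a cKO and 1.06 and 0.99 times in the cDKO. In the Controls the last 500 kb exceeded the rest of its own end on 7 of 18 chromosomes in each replicate, in the G9a cKO on 16 and 14, and in the cDKO on 13 and 10. The Controls thus had a lower read share in this stretch than farther in, and the G9a cKO a higher one, while the cDKO libraries lay on either side of 1.

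**Figure D3:**
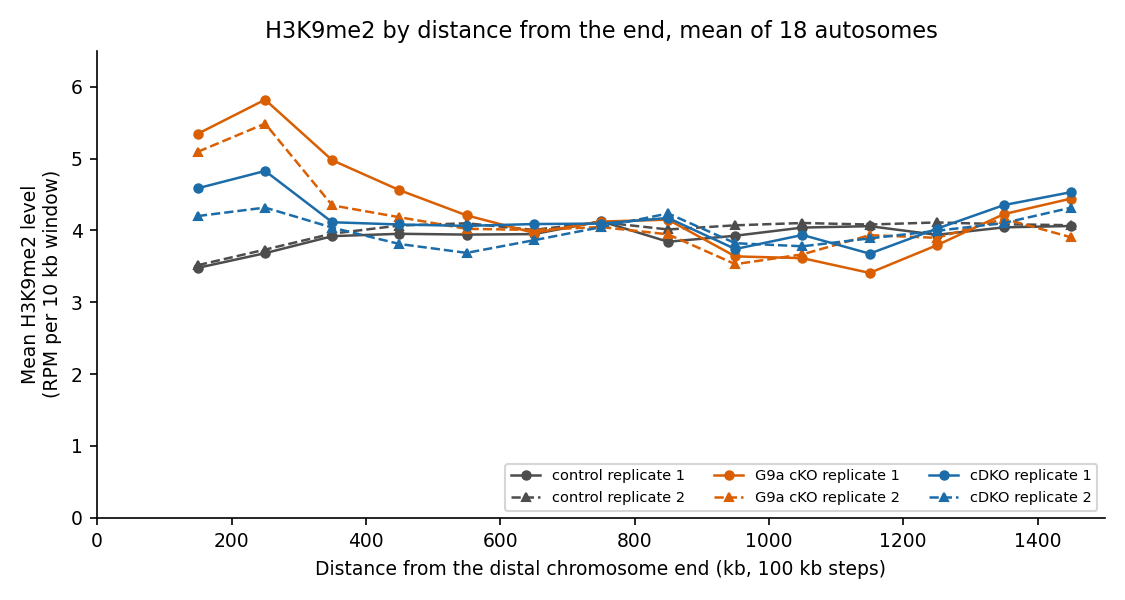
Mean H3K9me2 level (RPM per 10 kb window) over 18 autosomes in 100 kb steps from the distal end, 1 line per library. The G9a cKO lines peak at 5.82 and 5.49 RPM in the step from 200 to 300 kb, where the Controls are at 3.68 and 3.73 RPM, and in the step from 500 to 600 kb the 6 lines lie between 3.69 and 4.21 RPM.

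Bins of 500 kb, a length chosen after this profile was seen, were then fitted over the whole table. Of the 18 last bins, 12 rose and 1 fell in the G9a cKO, while 49.4% of all 5124 bins were called, 22.2% higher and 27.1% lower. The median log2 fold change of the last bins was 0.40, beside -0.03 over all bins. For the cDKO 6 rose and 2 fell, with a median of 0.23 beside -0.03, while 34.2% of all bins were called, 16.8% higher and 17.4% lower. Compared directly, the cDKO was lower than the G9a cKO in 7 last bins (chromosomes 3, 5, 9, 12, 15, 18 and 19) and higher in none, while 9.47% of all bins were called, 4.08% higher and 5.39% lower. Both G9a cKO libraries stood above both Controls on 15 chromosomes and below both on 2. Both cDKO libraries stood above the Controls on 11 and below on 4, and below both G9a cKO libraries on 12.

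Chromosome 15 rose most. Its last 500 kb (103543686 to 104043685) holds the mucin-type genes Glycam1 and Mucl2 and no detected RNA locus, and its level was 3.56 and 3.61 RPM in the Controls, 7.02 and 6.09 RPM in the G9a cKO and 4.75 and 4.69 RPM in the cDKO. The 3 genotypes did not overlap. The log2 fold change was 0.87 (SE 0.10, limma adjusted p = 1.88e-05) in the G9a cKO and 0.40 (SE 0.10) in the cDKO, and the cDKO was lower than the G9a cKO by -0.47 (SE 0.10, limma adjusted p = 0.0187). Over its whole 3 Mb this end did not pass the test. Chromosome 5 behaved alike at its last 500 kb, which holds Stard13 (a GTPase-activating protein), Rfc3 (a subunit of the clamp loader for DNA replication) and Vmn2r18. The Controls had 3.84 and 3.80 RPM, the G9a cKO 6.39 and 6.54 RPM and the cDKO 5.12 and 4.66 RPM, with log2 fold changes of 0.76 (SE 0.08) and 0.35 (SE 0.08) and a direct difference of -0.40 (SE 0.08, limma adjusted p = 0.0167).

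Chromosome 9, where the last 500 kb contains Ccr2 (a chemokine receptor of monocytes), had 3.12 and 3.52 RPM in the Controls, 5.18 and 5.58 RPM in the G9a cKO and 4.41 and 3.49 RPM in the cDKO. One cDKO library overlapped the Controls, and the G9a cKO rose by 0.70 (SE 0.13). Chromosome 11, with the tubulin folding cofactor gene Tbcd and Metrnl, had 4.19 and 4.16 RPM in the Controls, 6.77 and 6.29 RPM in the G9a cKO and 5.41 and 5.66 RPM in the cDKO. Its rises of 0.65 (SE 0.08) and 0.41 (SE 0.08) were called with each library left out in turn, the only cDKO rise in the last 500 kb of which that is true. On chromosome 18 (Tmx3, a disulphide isomerase gene) the Controls had 3.41 and 3.38 RPM, the G9a cKO 5.32 and 5.21 RPM and the cDKO 4.40 and 3.88 RPM, again without overlap between genotypes.

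Chromosomes 7 and 12 differed from this. Chromosome 7 had its last 500 kb lower in both mutants. The stretch (144941460 to 145441459) holds Tpcn2, an ion channel gene of endolysosomes, and the Mas-related receptor genes Mrgprf and Mrgprd. It had the highest Control level of all, 5.21 and 5.37 RPM, and fell to 3.93 and 3.72 RPM in the G9a cKO and 3.99 and 4.07 RPM in the cDKO. The log2 fold changes were -0.47 (SE 0.08, limma adjusted p = 0.000429) and -0.39 (SE 0.08, limma adjusted p = 0.00352). Chromosome 12, where Tmem196 is the sole protein-coding gene, had 3.75 and 3.83 RPM in the Controls, 4.78 and 4.15 RPM in the G9a cKO and 3.09 and 2.82 RPM in the cDKO. The G9a cKO lay above the Controls (0.23, not passed) and the cDKO below (-0.36, limma adjusted p = 0.0173), and the direct difference was -0.59 (SE 0.11, limma adjusted p = 0.0150). The call of the cDKO against Control was lost without any one of the Control or cDKO libraries (limma adjusted p 0.0602 to 0.160).

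The remaining last bins called higher in the G9a cKO were those of chromosomes 1, 4, 6, 8, 10, 16 and 19, with log2 fold changes of 0.29 to 0.51. On chromosome 4, with Agrn (agrin, an organiser of the neuromuscular synapse) and Isg15 (an interferon-induced ubiquitin-like protein), the Controls had 4.10 and 3.88 RPM, the G9a cKO 5.58 and 5.32 RPM and the cDKO 5.61 and 5.40 RPM, the same rise in both mutants (0.45 and 0.47, SE 0.10). Chromosome 8 (Ccdc7a and Ccdc7b) had 3.63 and 3.73 RPM in the Controls, 5.78 and 4.67 RPM in the G9a cKO and 4.63 and 3.96 RPM in the cDKO, although its whole 3 Mb was lower in the G9a cKO. The last bins of chromosomes 3, 13, 14 and 17 did not pass against Control in either mutant. Chromosome 13 stood apart in level, at 1.71 and 1.66 RPM in the Controls and 1.33 to 1.60 RPM in the mutants. It carries B020031M17Rik, Tcstv3 and AF067061, members of a cluster of near-identical copies, so reads there are uncertain.

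**Figure D4:**
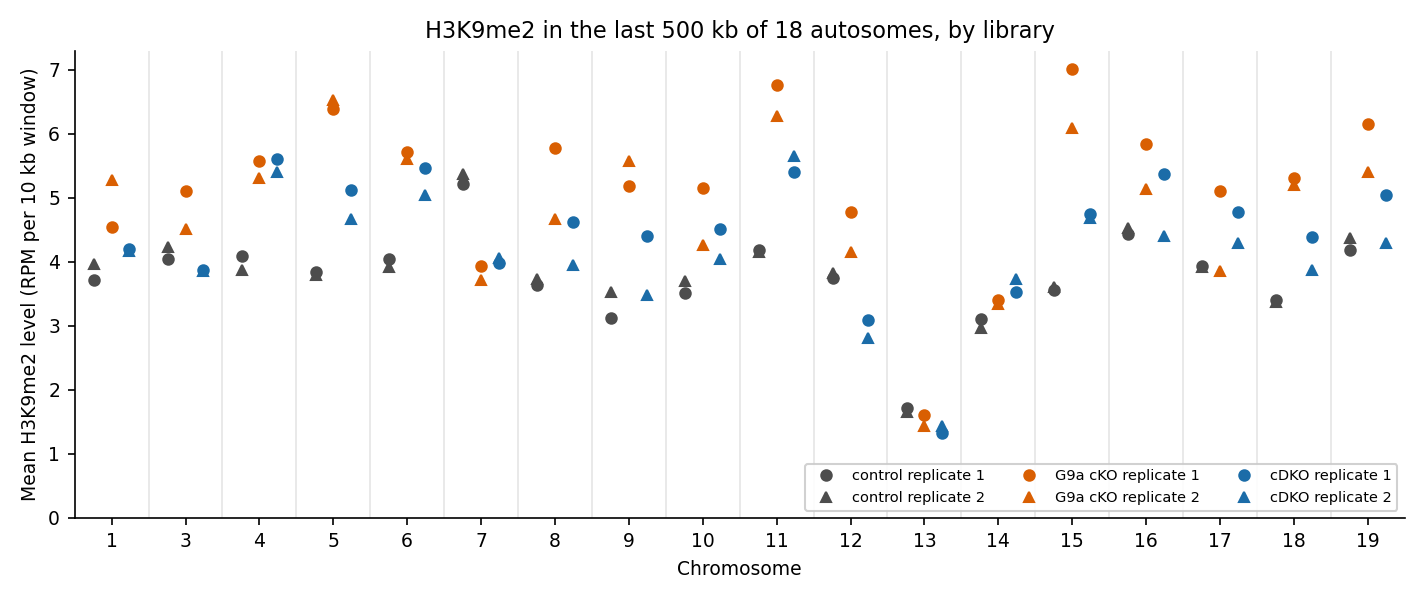
Mean H3K9me2 level (RPM per 10 kb window) in the last 500 kb of each of 18 autosomes, 1 point per library, circles for replicate 1 and triangles for replicate 2. Chromosome 15 reaches 7.02 and 6.09 RPM in the G9a cKO against 3.56 and 3.61 RPM in the Controls, and at chromosome 7 the Controls (5.21 and 5.37 RPM) are highest.

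These bins held 59 to 290 reads in the shallowest library, G9a cKO replicate 2. Of the 13 G9a cKO calls, 11 were made whichever library was left out. The exceptions were chromosome 1 without Control replicate 1 (limma adjusted p = 0.0766) and chromosome 16 without either Control or G9a cKO replicate 1 (0.0545 to 0.131). The cDKO calls depended more on single libraries. Against Control, those of chromosomes 4, 5, 6, 7, 12, 15 and 18 were lost without Control replicate 2 (limma adjusted p 0.0515 to 0.181). Without cDKO replicate 1 those of 5, 6, 12, 15 and 18 were lost (0.0534 to 0.177), without Control replicate 1 those of 12 and 18 (0.102 and 0.139), and without cDKO replicate 2 that of 12 (0.103). All 7 differences between the mutants were lost without cDKO replicate 1 and without cDKO replicate 2 (limma adjusted p 0.0576 to 0.347). Those of chromosomes 3 and 19 were also lost without either Control or G9a cKO replicate 1 (0.0504 to 0.142), and that of chromosome 9 without G9a cKO replicate 2 (0.0577).

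At 100 kb resolution 520 bins of the ends were tested among 25502. In the G9a cKO 94 rose and 86 fell, while 29.9% of all bins were called, 14% higher and 15.9% lower. With each library centred on its median bin the split was 111 higher and 57 lower. Of the 35 bins that lie 100 to 300 kb from an end, 19 rose and 2 fell, and of the 449 bins between 500 kb and 3 Mb, 66 rose and 83 fell. The band from 100 to 300 kb holds the peak of the profile from these same libraries, so its count adds no separate support. Without Control replicate 1 the calls came to 57 in all, and without Control replicate 2 to 59. In the cDKO 41 rose and 14 fell, while 6.86% of all bins were called, 4.95% higher and 1.91% lower. The cDKO count was 0 without cDKO replicate 1 and without cDKO replicate 2, 6 without Control replicate 1, 2 without Control replicate 2, and 136 and 138 without G9a cKO replicate 1 or 2. Between the mutants 4 bins were higher and 3 lower in the cDKO, where 0.733% of all bins were called, 0.2% higher and 0.533% lower. That count was 0 without cDKO replicate 1 and without cDKO replicate 2, and 36 and 23 without G9a cKO replicate 1 or 2.

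The bins that rose most in the G9a cKO were all 200 to 400 kb from an end. One on chromosome 8 (129101214 to 129201213), over Ccdc7b, had 3.75 and 3.90 RPM in the Controls, 10.1 and 8.29 RPM in the G9a cKO and 6.79 and 5.05 RPM in the cDKO, a log2 fold change of 1.26 (SE 0.16, limma adjusted p = 0.000732). One on chromosome 15 (103743686 to 103843685), without a protein-coding gene, went from 3.43 and 3.42 RPM to 8.24 and 7.93 RPM in the G9a cKO, with 5.86 and 5.95 RPM in the cDKO. One on chromosome 5 (151434685 to 151534684), also without one, went from 2.71 and 3.01 RPM to 6.73 and 6.67 RPM, with 3.77 and 4.20 RPM in the cDKO. All 3 were called under each alternative tried. The last of them was also lower in the cDKO than in the G9a cKO (-0.75, SE 0.14, limma adjusted p = 0.0427), as were gene-free bins 300 to 400 kb from the end of chromosome 12 (-0.95) and 200 to 300 kb from the end of chromosome 18 (-0.75).

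The bins that fell most lay farther in. On chromosome 14 (124102245 to 124202244), the bin with the Fgf14 promoter printed above had 4.27 and 3.97 RPM in the Controls and 1.72 and 1.71 RPM in the G9a cKO, with 3.71 and 2.98 RPM in the cDKO. The G9a cKO log2 fold change was -1.26 (SE 0.18, limma adjusted p = 0.00111), and the cDKO was higher than the G9a cKO by 0.95 (SE 0.18, limma adjusted p = 0.0427). This bin held only 32 and 19 reads in the G9a cKO and 64 and 56 in the cDKO. On chromosome 8 (128301214 to 128401213), the bin with the Nrp1 promoter had 5.02 and 4.83 RPM in the Controls, 2.96 and 1.89 RPM in the G9a cKO and 2.84 and 3.56 RPM in the cDKO. On chromosome 12 (118529023 to 118629022), a bin without a protein-coding gene went from 4.98 and 5.06 RPM to 2.75 and 1.53 RPM in the G9a cKO, with 3.42 and 2.98 RPM in the cDKO, the largest fall (-1.29, SE 0.24). In these 3 bins each mutant library was below both Controls.

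In the cDKO the largest rises were over Megf6 and Arhgef16 and over Fry. The bin with the Arhgef16 promoter (chromosome 4, 154208117 to 154308116) had 3.49 and 3.70 RPM in the Controls, 7.66 and 6.38 RPM in the cDKO and 6.95 and 6.85 RPM in the G9a cKO, a cDKO log2 fold change of 0.96 (SE 0.14, limma adjusted p = 0.00926). The bin with the Fry promoter (chromosome 5, 150234685 to 150334684) had 3.31 and 3.43 RPM in the Controls, 6.33 and 6.11 RPM in the cDKO and 7.22 and 4.78 RPM in the G9a cKO. The largest falls were 2 adjoining bins on chromosome 1 (193771972 to 193971971) and 1 on chromosome 18, with log2 fold changes of -0.67 to -0.88. Between the mutants, a bin over Ccdc91 on chromosome 6 (2.05 and 2.52 RPM in the G9a cKO, 5.16 and 4.04 RPM in the cDKO) and a bin over the sodium leak channel gene Nalcn on chromosome 14 (1.88 and 2.25 RPM against 3.71 and 3.93 RPM) were higher in the cDKO. Each call in the cDKO or between the mutants that is named here was lost without cDKO replicate 1 and without cDKO replicate 2, and those of chromosomes 1 and 18 against Control also without either Control (limma adjusted p 0.106 to 0.287).

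Few single windows were called at this depth. By limma on the deposited log2 values, 92 windows of the ends were higher and 6 lower in the G9a cKO, 1.78% and 0.116% of 5167. Of all 255057 windows 1.85% were called, 1.75% higher and 0.102% lower. An empty window stands at -2.97 and -4.41 in the Controls and at -1.05 and -0.30 in the G9a cKO. A window empty in both genotypes thus counts as higher in the mutant. Among windows read in all 6 libraries, 46 of the ends were higher and 0 lower. With libraries centred on the median window, which removes a shift of -0.13 on the log2 scale, the split was 160 higher and 7 lower. The count was 0 without G9a cKO replicate 2 and without either cDKO library, 31 and 38 without Control replicate 1 or 2, and 295, of which 91 were higher and 204 lower, without G9a cKO replicate 1. For the cDKO against Control, and between the mutants, limma called 0 windows of the ends (0% of all windows), with 517 and 726 windows of the ends at an unadjusted p under 0.05, and precision weights on the reads gave 214 and 1.

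Gene content varied widely between ends. The 6 rising ends held 21 to 127 protein-coding genes (median 62) and 13 to 36 RNA loci whose mean over the oocyte libraries reached 10 RPM (detected loci), and the 4 ends that fell in the G9a cKO held 12 to 23 genes (median 16) and 5 to 9 detected loci. The 8 ends not called held 3 to 85 genes (median 16.5) and 2 to 36 detected loci, so they overlapped both groups, and no difference in gene content was tested. Across the 18 ends the log2 fold change went with the number of detected loci with Pearson's r of 0.64 (Spearman correlation 0.62) in the G9a cKO and 0.73 (Spearman correlation 0.68) in the cDKO. The points share libraries and Controls, and the relation was present elsewhere too, with r of 0.37 and 0.53 over 785 other autosomal bins of 3 Mb. In the last 500 kb, which held 0 to 4 detected loci, r was 0.27 in the G9a cKO and 0.34 in the cDKO, and 3 of the 12 rising last bins held no detected locus.

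The same showed at 100 kb. In bins of the ends with at least 2 detected RNA loci (90 bins), the level was 3.68 and 3.60 RPM in the Controls, 4.33 and 4.27 RPM in the G9a cKO and 4.59 and 4.48 RPM in the cDKO. In bins with none (268 bins) it was 4.16 and 4.24 RPM in the Controls, 4.16 and 4.03 RPM in the G9a cKO and 3.96 and 3.92 RPM in the cDKO. The Controls thus had a lower read share over transcribed bins than over bins with none, and the mutants, more so the cDKO, had the reverse. No input or IgG library was used, so background reads are part of these shares, and their part was not tested. Outside the ends the order was the same, with 3.76 and 3.68 RPM, 4.21 and 4.32 RPM, and 4.49 and 4.38 RPM over bins with at least 2 detected loci.

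**Figure D5:**
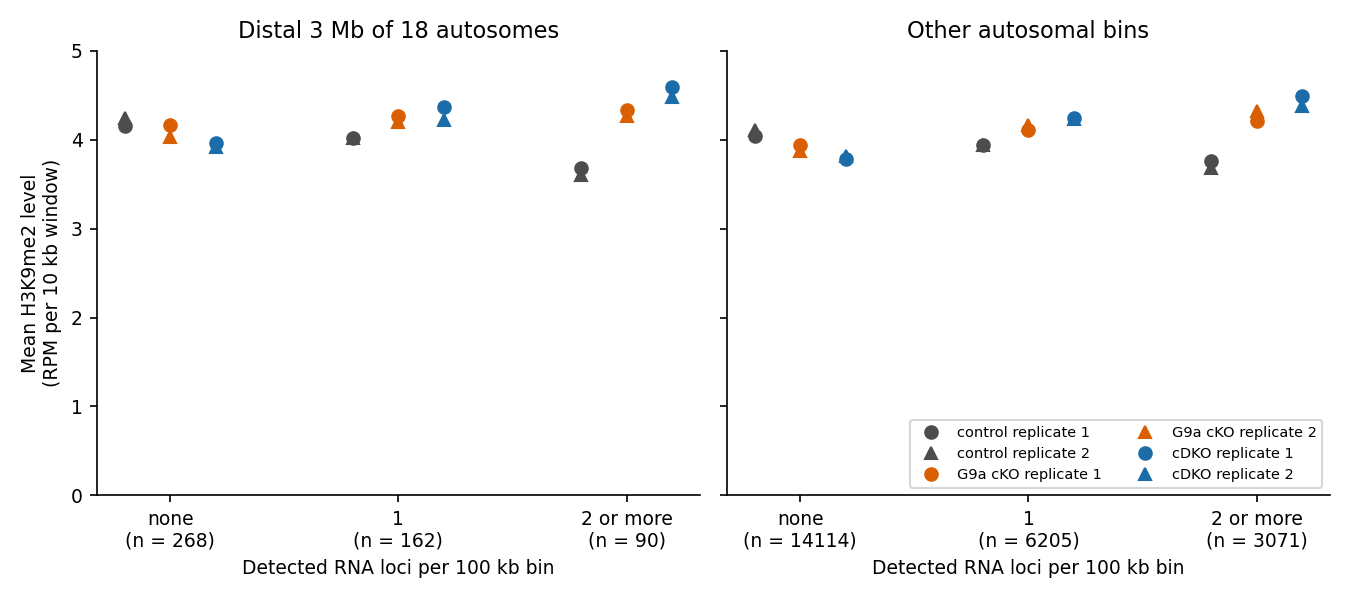
Mean H3K9me2 level (RPM per 10 kb window) of 100 kb bins with no, 1, or at least 2 detected RNA loci, in the ends (left) and in the other autosomal bins (right), 1 point per library. Over bins with at least 2 loci in the ends the Controls are at 3.68 and 3.60 RPM and the cDKO at 4.59 and 4.48 RPM. Over bins of the ends with none, the Controls are at 4.16 and 4.24 RPM and the cDKO at 3.96 and 3.92 RPM. There G9a cKO replicate 1 (4.16 RPM) is level with Control replicate 1.

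At named landmarks some 100 kb bins were called in the G9a cKO, where 29.9% of all bins were called, and few in the cDKO, where 6.86% were. At the imprinted genes of distal chromosome 7, the bin with the growth-restraining noncoding RNA gene H19 fell in the G9a cKO (-0.73, limma adjusted p = 0.00650) and was not called in the cDKO (-0.44, limma adjusted p = 0.100). The bins of Igf2 (a fetal growth factor), Cdkn1c and Phlda2 (growth restrainers of embryo and placenta) were not called in either. Kcnq1, a potassium channel gene that hosts the noncoding RNA of its imprinted domain, spans 4 bins, of which 1 rose and 1 fell in the G9a cKO and 1 fell in the cDKO. On chromosome 14 the bin of Zic2 (a forebrain transcription factor) fell in the G9a cKO (-0.73, limma adjusted p = 0.0118), as did 2 of 8 bins of Fgf14. On chromosome 16, 2 of 3 bins of Erg (an endothelial and blood transcription factor) fell in the G9a cKO, over which the mean level was 4.13 and 3.82 RPM in the Controls and 2.49 and 3.08 RPM in the G9a cKO. Dscam (a neuronal adhesion molecule) had 1 of 7 bins higher and 1 lower in the G9a cKO, and 1 lower in the cDKO.

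The deleted genes check the RNA labels. Ehmt2, the gene for G9A, was low throughout, at 8.23, 6.81 and 5.27 RPM in the GKAO Controls and 2.09, 6.01 and 0.942 RPM in the G9a cKO, so G9a cKO replicate 2 lay inside the Control range and the change was not called (-1.55, limma adjusted p = 0.0971). In the cDKO it stood at 2.85 and 2.96 RPM against 5.03, 12.5 and 7.89 RPM (-1.45, limma adjusted p = 0.121). Ehmt1, for GLP, fell from 90.5, 68.3 and 85.3 RPM to 17.7 and 21.3 RPM in the cDKO (-2.06, limma adjusted p = 1.09e-21) and not in the G9a cKO (0.08, limma adjusted p = 0.771). Which exons the deletions remove is not given in the sources used here, and the chromatin libraries carry no such check. Of the oocyte markers all 9 matched were detected, 1 of 4 blood cell markers was matched and had 0 reads in each library, and 2 of 8 granulosa cell markers reached 10 RPM, with a summed level of all 8 of 179 to 193 RPM in the GKAO Controls, 131 to 161 RPM in the G9a cKO, 127 to 153 RPM in the GKAQ Controls and 108 to 135 RPM in the cDKO. Of the granulosa cell markers 0 were called in the G9a cKO and 2 were higher in the cDKO, and of the oocyte markers 2 were higher in the G9a cKO and 3 higher and 2 lower in the cDKO. Their part in the results was not tested.

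The RNA of the ends was called about as often as RNA elsewhere. Of 997 RNA loci that overlap the ends, 444 have a gene name and 274 reached a mean of 10 RPM. In the G9a cKO 12 were higher and 5 lower, while 1.79% of all 38540 loci were called, 1.05% higher and 0.737% lower. In the cDKO 44 were higher and 21 lower, while 6.34% of all loci were called, 4.32% higher and 2.02% lower. Restricted to loci with a mean of at least 10 RPM the cDKO split was 27 higher and 27 lower, and with libraries centred on those loci 35 higher and 39 lower. In the cDKO the median H3K9me2 log2 fold change of their bins was 0.01 for the 44 higher loci and 0.20 for the 21 lower ones. For the 237 detected loci that were not called it was 0.32. In the G9a cKO it was -0.07 for the 12 higher, 0.25 for the 5 lower and 0.19 for the 260 detected loci not called. Called loci were taken at any RNA level and the others only if detected, so these sets are not matched for level.

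The strongest RNA gains in the cDKO were of genes at or near 0 in Control oocytes. Rdh16 (a retinol dehydrogenase of liver, chromosome 10) had 0 reads in the 3 Controls and 11.4 and 15.4 RPM in the cDKO, at least 6.04-fold higher when each Control is set to 3 reads (limma adjusted p = 1.97e-07). Krt8 (a keratin of simple epithelia, chromosome 15) had 0, 0.417 and 0 RPM in the Controls and 11.4 and 9.49 RPM in the cDKO (limma adjusted p = 4.18e-06). AF067063 and B020031M17Rik rose on chromosome 13 (limma adjusted p = 0.000764 and 0.0129), where near-identical copies make counts uncertain, and so did Ccdc137 on chromosome 11 (0.0138). Lower were Tac2 (neurokinin B; 15.7, 8.75 and 12.8 RPM against 6.83 and 1.78 RPM), Csf2ra (the GM-CSF receptor chain; 16.3, 12.1 and 10.8 RPM against 3.42 and 5.93 RPM), Ttc34, Ttll10 and Erg (27.0, 29.2 and 33.5 RPM against 19.4 and 14.2 RPM). Leaving out 1 library ended the call of B020031M17Rik (without GKAQ Control replicate 2 or cDKO replicate 2, limma adjusted p up to 0.267), Ccdc137 (either cDKO library, up to 0.143), Ttll10 (any Control or cDKO replicate 1, up to 0.425), Tac2 (cDKO replicate 2, 0.552), Csf2ra (GKAQ Control replicate 1 or cDKO replicate 1, up to 0.321), Ttc34 (GKAQ Control replicate 3, 0.0552) and Erg (GKAQ Control replicate 2 or 3 or cDKO replicate 2, up to 0.403).

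Fewer named genes changed in the G9a cKO. Nanos1 (an RNA-binding protein of the germ line, chromosome 19) had 17.1, 12.0 and 9.38 RPM in the Controls and 27.1, 27.9 and 21.7 RPM in the mutant, and Sp1 (a zinc finger transcription factor, chromosome 15) 20.6, 17.3 and 13.5 RPM against 30.5, 33.3 and 31.1 RPM. Neither gene's groups overlapped. Gm9524, Cth (cystathionine gamma-lyase) and Ube2j2 (a ubiquitin-conjugating enzyme) rose by log2 fold changes of 0.82 to 1.10. 1110059G10Rik fell from 21.9, 24.1 and 29.9 RPM to 7.10, 12.0 and 9.89 RPM (-1.41, SE 0.28, limma adjusted p = 9.99e-05), Gm11775 fell by -1.18 and Tmtc1 by -0.37. The falls of 1110059G10Rik and Gm11775 were called whichever library was left out. The other 6 calls were each lost without at least 3 single libraries, G9a cKO replicate 3 among them except for Nanos1, which was lost without GKAO Control replicate 3 or G9a cKO replicate 1 or 2 (limma adjusted p 0.0742 to 0.156). 1110059G10Rik, Gm11775, Tmtc1, Nanos1, Cth and Ttc34 overlap a locus on the other strand, and whether counting used strand is not given in the sources used here.

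Of 25 listed genes of telomere binding and heterochromatin 19 were matched. For the G9a cKO, where 1.79% of all loci were called, 2 of the 19 were higher and 0 lower, Zscan4d and a low-count locus of Cbx3 (an HP1 protein; 0, 1.05 and 1.17 RPM against 4.17, 6.01 and 2.35 RPM), with a median log2 fold change of 0.06 over the 19. In the cDKO, where 6.34% of all loci were called, Zscan4d, Daxx and Rif1 rose and Ehmt1 fell, with a median of 0.04. Daxx (a histone H3.3 chaperone that works with ATRX at telomeres) went from 48.4, 55.4 and 71.0 RPM to 97.9 and 83.6 RPM (0.65, limma adjusted p = 0.0116) and Rif1 (a telomere-associated replication timing factor) from 267, 348 and 369 RPM to 388 and 398 RPM (0.28, limma adjusted p = 0.0348). The call of Daxx was lost without GKAQ Control replicate 1 or 2 or cDKO replicate 1, that of Rif1 without GKAQ Control replicate 1 or either cDKO library and on loci of at least 10 RPM, centred or not, and that of Cbx3 without GKAO Control replicate 1 or G9a cKO replicate 1 or 2. Zscan4d, a gene of the cleavage embryo linked to telomere lengthening, rose from 3.43, 3.14 and 2.34 RPM to 14.2, 33.3 and 19.3 RPM in the G9a cKO and from 1.89, 1.25 and 4.93 RPM to 72.9 and 61.1 RPM in the cDKO. It belongs to a family of near-identical copies, so its level is uncertain. Tert, Terf1, Terf2 and Pot1a (telomerase and shelterin proteins) did not pass the test in either mutant.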

How the data were processed

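H3K9me2 chromatin immunoprecipitation libraries (2 per genotype) and RNA libraries (11) were analysed; input, IgG and bisulphite libraries, and 4 chromatin columns that match no sample, were not used here. The authors deposited log2 RPM per 10 kb window and per RNA locus. That unit was read from the values, in which an empty feature stands at 0.9 of 1 read and the others at whole reads within 0.01. The tools named for the series are Trim Galore, Bowtie2, HISAT2 2.1.0 and Bismark 0.19.0, with build GRCm38, per the submitters' processing notes; how reads were counted is not given in the sources used here.

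Reads were recovered from the deposited values and RPM was summed in bins of 3 Mb, 500 kb and 100 kb counted back from each chromosome end. A 100 kb bin was tested where at least 5 of its 10 windows held a read, and a 3 Mb bin where at least 50% did. Log2 RPM of bins (with no pseudocount), windows and RNA loci was fitted with limma 3.58.1 (trend and robust settings) in R 4.3.3, all 3 genotypes sharing 1 estimate of the spread for H3K9me2, with Benjamini-Hochberg adjustment over the whole table and a threshold of 0.05. The fits were also run on simulated counts that gave all groups of a fit the same dispersion. That run cannot show how the p-values behave where the spread differs between groups. Gene names, gene positions and promoters came from RefSeq (GRCm38.p6); no genome sequence was used. An empty window or locus is not 0 but takes a value set by the depth of its library. On the log2 scale an empty window stands at -4.41 in Control replicate 2 and -0.30 in G9a cKO replicate 2. Fold changes of low windows and loci are therefore shifted by depth as well as understated. The matched blood cell marker, with 0 reads in each RNA library, had log2 fold changes of -0.32 in the G9a cKO and 0.20 in the cDKO. The members and gene lists were chosen with earlier results of these data known.

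Every end was named. Of called 100 kb bins the 3 with the largest fold change per direction and comparison were named, and of called annotated RNA loci overlapping the ends the 5 largest per direction. Genes in the last 500 kb and at the promoters were named for their position, after their bins' values were seen. Alternatives were other lengths of the end, other filters and centrings, precision weights on recovered reads, and leaving out each library.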

Additional observations from a re-analysis of the deposited data

Results flagged for a closer look

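Limma's test of the cDKO against the G9a cKO, with adjustment over all bins, shared its estimate of the spread with the deeper Controls. Its p-values may thus be too small. The differences between the mutants were as follows on the log2 scale. Over 3 Mb the end of chromosome 14 was higher in the cDKO by 0.29 (adjusted p = 0.0358). Over the last 500 kb the cDKO was lower on chromosome 3 (-0.31, adjusted p = 0.0433), 5 (-0.40, 0.0167), 9 (-0.46, 0.0407), 12 (-0.59, 0.0150), 15 (-0.47, 0.0187), 18 (-0.35, 0.0309) and 19 (-0.31, 0.0491). Among 100 kb bins it was higher over Ccdc91 on chromosome 6 (1.01, adjusted p = 0.0427), over Fgf14 (0.95, 0.0427) and over Nalcn (0.89, 0.0427) on chromosome 14. It was lower in bins on chromosome 12 (-0.95, adjusted p = 0.0380), chromosome 5 (-0.75, 0.0427) and chromosome 18 (-0.75, 0.0420). Each of these calls was lost when either cDKO library was left out.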

How the results depend on the processing

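Leaving out 1 library at a time moved many counts. The library left alone in its group was then assumed to vary like the others. Ends called in the cDKO against Control ranged from 4 to 12 and between the mutants from 0 to 5, while those in the G9a cKO ranged from 8 to 11. In the last 500 kb the ranges were 11 to 16 for the G9a cKO, 1 to 12 for the cDKO and 0 to 8 between the mutants. For 100 kb bins they were 57 to 186, 0 to 138 and 0 to 36 in that order, and for 10 kb windows 0 to 295, 0 to 5 and 0 to 1. RNA loci ranged from 9 to 16 in the G9a cKO and from 41 to 50 in the cDKO. The log2 ratio of the ends to the other autosomal windows ranged from 0.019 to 0.051 in the G9a cKO and from 0.022 to 0.051 in the cDKO.

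The length taken as an end also mattered. Between the mutants 3 ends were called with bins of 1 Mb and 0 with bins of 5 Mb. The log2 ratio was 0.16 (G9a cKO) and 0.064 (cDKO) over the last 1 Mb, 0.10 and 0.10 over 5 Mb, and 0 and 0.10 as a ratio of medians over windows with reads in all libraries. The fall of chromosome 8 in the G9a cKO turned to 0.051 with bins of 1 Mb and 0.084 with bins of 5 Mb, and the fall of chromosome 13 in the cDKO turned to 0.032 with bins of 1 Mb. For windows in the G9a cKO, 315 were called with all windows tested, 46 with windows read in all 6 libraries, 167 after centring and 635 with precision weights. For windows in the cDKO 64 were called with all windows tested and 214 with precision weights, and between the mutants 1 with precision weights. Among 100 kb bins, precision weights gave 167 in the cDKO and 26 between the mutants, and centring gave 11 between the mutants. The cause of these shifts was not tested. The 500 kb bins and their alternatives were chosen after seeing the data. For H3K9me2 no paired analysis was possible because no library number in the titles is shared between genotypes. The RNA titles open with a code that some libraries share, and the labels do not say what it marks. Deviations from the group means were correlated over 9091 detected loci. Between GKAO Control and G9a cKO libraries r was 0.01 to 0.11 with a shared code and -0.12 to 0.00 without. For the cDKO library that shares a code with a GKAQ Control it was 0.00. Such deviations sum to 0 within a group, so these values cannot decide whether the codes mark pairs. The main fit did not take the codes as pairs. With the code as a replicate block, tried after seeing the data, 15 RNA loci were called in the G9a cKO and 24, of which 18 were higher and 6 lower, in the cDKO, where 1 pair then carried the comparison. With that block the calls of Gm9524, Ube2j2 and Tmtc1 in the G9a cKO were lost. So were those of B020031M17Rik, Ccdc137, Ttll10, Csf2ra, Ttc34 and Erg in the cDKO. The mutant libraries' low depth limits single windows most.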
